A study of Mus musculus with 12 samples.

Results

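The comparison described here is that of trans-vaccenic acid (TVA) with its vehicle, DMSO, in CD8+ T cells that carried a control siRNA. Its members are the protein-coding genes with a mean of at least 1 FPKM over the 6 libraries compared, which left 9619 of the 54532 genes in the files. This rule uses the mean level and no difference between the groups. FPKM is a read count scaled by gene length and by the library's read total. The cells were primary CD8+ T cells of wild-type (WT) C57BL/6 mice, from spleen and lymph nodes, that were isolated and activated, given a non-targeting siRNA (siNTC) by the Accell method, which uses a passively entering siRNA, and then treated for 24 h. There were 3 siNTC libraries with DMSO and 3 with 20 μM TVA. Both groups therefore share the activation, the delivery medium and the control siRNA. The other 6 of the 12 libraries of the series carried an siRNA against Creb1 (siCreb1), again with or without TVA, and are used only where the 2 TVA effects are set side by side. The labels do not say whether the libraries came from separate mice or cultures, so the p-values measure only the spread between these samples.

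TVA is a long-chain trans fatty acid of ruminant milk and meat. Activated CD8+ T cells divide rapidly and build new membranes, so they express the genes of DNA replication and mitosis together with those of fatty acid and cholesterol synthesis. Long-chain fatty acids are burned in mitochondria after the carnitine shuttle has carried them across the mitochondrial membrane, and they are also ligands of PPAR nuclear receptors. Polyunsaturated and other fatty acids are known to lower the activity of SREBP factors, which drive lipid synthesis genes, and of LXR, a nuclear receptor for oxidised cholesterol. CREB is a transcription factor activated by protein kinase A (PKA) when cyclic AMP rises.

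The reads recovered from the FPKM values numbered between 16660234 and 20758033 per library over the 6 libraries. Between 19456 and 20008 genes were above 0 in each. The defining CD8+ T cell markers were abundant and even, with Cd8a between 415.6 and 425.4 FPKM and Cd3e between 92.0 and 99.4 FPKM. Defining markers of other cells were mostly low but not all absent, and those of platelets were not low. Cd4 lay between 1.05 and 1.75 FPKM, Foxp3, of regulatory CD4+ T cells, between 1.87 and 2.99 FPKM and the NK cell gene Klrb1c between 2.15 and 3.92 FPKM. Of the monocyte and macrophage genes, Csf1r did not exceed 0.177 FPKM and Lyz2 lay between 4.63 and 6.77 FPKM. The platelet genes Pf4 (66.3 to 73.9 FPKM) and Ppbp (73.5 to 88.6 FPKM) were present in all 6 libraries. Of the 13 CD8+ T cell markers tested 0 were called by limma, with 5 at an unadjusted p under 0.05 and 2 called by limma-voom on recovered reads. Of the markers of other cell types tested, Ighm, a B cell gene, was called (lower). The summed level of the 11 B cell markers was 362.5 to 371.6 FPKM with DMSO and 331.1 to 341.6 FPKM with TVA, and that of the 7 NK cell markers 52.2 to 57.5 against 58.2 to 60.1 FPKM. The sums of the platelet (173.6 to 182.4 against 165.0 to 171.5 FPKM), dendritic cell (23.8 to 26.2 against 20.7 to 22.7 FPKM), monocyte and macrophage (9.6 to 10.2 against 8.73 to 8.87 FPKM) and CD8+ T cell markers (5290.7 to 5346.6 against 4982.5 to 5181.4 FPKM) were also lower in all 3 TVA libraries. Their part in the results was not tested. In bulk RNA, fewer cells of a kind and less RNA per cell cannot be told apart.

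TVA changed many transcripts by a small amount. Each gene was compared on log2(FPKM + 1) with limma in a fit of all 12 libraries, with p-values adjusted by the Benjamini-Hochberg method and a gene called below 0.05. Of the 9619 protein-coding genes, 496 were higher with TVA (5.16%) and 310 were lower (3.22%), 8.38% in all. In each of these 806 genes the 3 TVA libraries lay entirely above or below the 3 DMSO libraries, as they did in 26.1% of all protein-coding genes tested. Rises were larger than falls. The median FPKM ratio of TVA to DMSO was 1.29 among the genes that rose and 0.885 among those that fell. Of those that rose, 99 differed by at least 1.5-fold and 6 by at least 2-fold, whereas 7 of those that fell differed by at least 1.5-fold and 0 by 2-fold. The genes that fell were more abundant, with a median of 28.7 FPKM against 10.9 FPKM for those that rose and 9.49 FPKM for all genes tested. The precision also depended on abundance: the median SE of a log2 difference fell from 0.08 in genes of 1 to 5 FPKM to 0.03 in genes of 100 FPKM or more, and the share called rose from 4.59% to 22.1%. Over genes of every biotype the split was 520 higher and 335 lower (60.8% higher). That share was 72.4% after rescaling to TPM, FPKM rescaled to a fixed sum (557 genes called), and 76.0% in a fit of the 6 libraries alone (375 genes called).

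**Figure D1:**
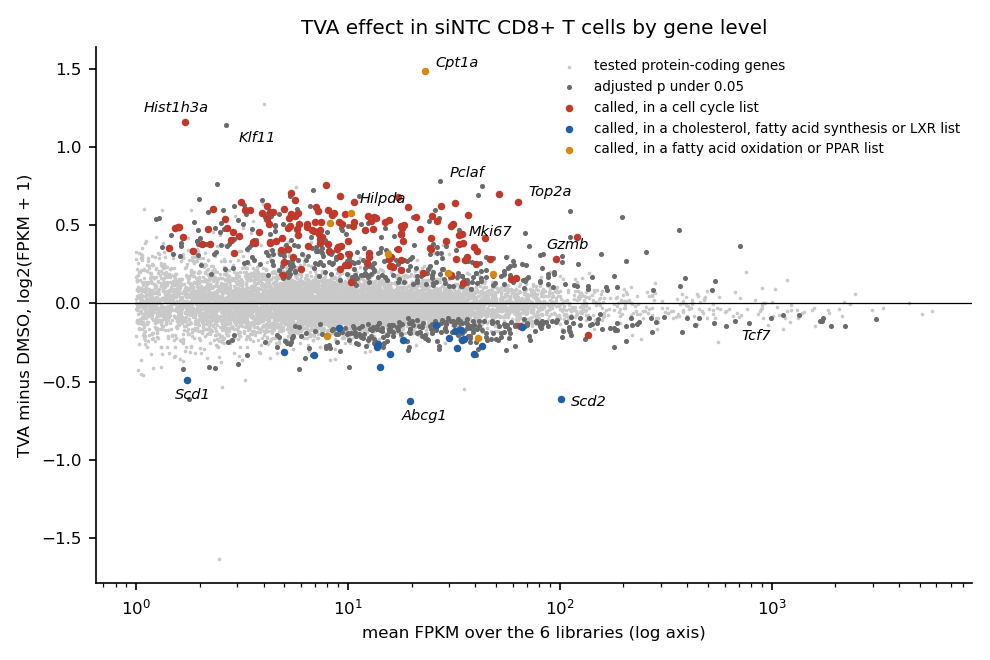
TVA minus DMSO in siNTC cells on log2(FPKM + 1) against mean FPKM (log axis); each point is 1 of the 9619 protein-coding genes, dark where the adjusted p is under 0.05 and coloured where a called gene belongs to a cell cycle or lipid list. Most coloured points of the cell cycle lists lie above 0, those of the sterol, fatty acid synthesis and LXR lists lie below it, and Cpt1a stands highest.

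The largest called rise on the log2(FPKM + 1) scale was that of Cpt1a, the outer mitochondrial enzyme that commits long-chain fatty acids to oxidation. Its level was 11.4, 11.7 and 12 FPKM in the DMSO libraries and 34.7, 33.6 and 35.3 FPKM in the TVA libraries. The groups were far apart relative to their spread, and the log2 difference was 1.48 ± 0.04 (SE, adjusted p = 3.25e-08). The next step of the same route rose too. Slc25a20, the carnitine-acylcarnitine carrier of the inner membrane, was at 6.05, 7.08 and 6.63 FPKM with DMSO and at 10.4, 9.02 and 10.1 FPKM with TVA (log2 difference 0.52 ± 0.07 (SE), adjusted p = 0.00113). Among the enzymes of β-oxidation itself, Acadvl, the very-long-chain acyl-CoA dehydrogenase, rose from 13.6 ± 0.398 to 17.2 ± 0.866 FPKM (SD, n = 3 each; adjusted p by limma 0.00359). Acaa2, a thiolase, and Acadl, the long-chain dehydrogenase, rose by less, with log2 differences of 0.19 and 0.20. In all, 5 of the 35 tested members of the fatty acid oxidation list were higher. Of the 2 members called lower, Hsd17b10, which acts on short branched acyl groups, had a log2 difference of -0.22. The median of the list was 0.02, against -0.005 for all protein-coding genes tested, so most members lay near 0. Acaa2, Acadl and Hsd17b10 were the less certain calls and lost the call in 9, 8 and 12 of 17 alternative settings, among them the omission of TVA replicate 2 or 3.

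A few genes outside the carnitine route rose as well. Klf11, a Krüppel-like repressor, was at 1.19, 1.31 and 1.38 FPKM with DMSO and at 4.31, 3.85 and 4.00 FPKM with TVA. The ratio of its FPKM means, 3.14, was above the 2.95 of Cpt1a, and its log2 difference was 1.14 ± 0.07 (SE, adjusted p = 1.12e-05). Its relative Klf10 rose from 2.35 to 3.46 FPKM (log2 difference 0.41 ± 0.08 (SE), adjusted p = 0.0122). Hilpda, which inhibits lipolysis at lipid droplets, was the one called gene of the 17 tested in the PPAR and lipid droplet list. That share of 5.88% is near the 5.16% of all protein-coding genes that rose. The median of the list was 0.03, with 10 positive and 7 negative differences. The levels of Hilpda, 7.81, 8.29 and 8.26 FPKM with DMSO and 11.4, 13.6 and 12.9 FPKM with TVA, did not overlap. Rhob, a small GTPase named after its values were seen, rose from 2.34 ± 0.204 to 4.14 ± 0.183 FPKM (SD, n = 3 each; adjusted p by limma 0.000341).

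Several genes of fatty acid synthesis fell. Scd2, a stearoyl-CoA desaturase, which makes monounsaturated fatty acids, was at 127.5, 119.5 and 120.4 FPKM with DMSO. It was at 80.4, 78.6 and 80.2 FPKM with TVA, a log2 difference of -0.61 ± 0.03 (SE, adjusted p = 7.38e-07). The gap between the groups was many times the spread within either. Its paralogue Scd1 was far lower, 2.21 FPKM with DMSO and 1.28 FPKM with TVA, and fell in the fit of all libraries (log2 difference -0.49 ± 0.10 (SE), adjusted p = 0.0153). It missed the threshold in 5 of 16 alternatives, among them the fit of the 6 libraries alone and the omission of siNTC replicate 1 or TVA replicate 2 or 3. Fatty acid synthase (Fasn), the acetoacetate-activating Aacs and Srebf1, which encodes the SREBP1 factor itself, fell by 0.17, 0.28 and 0.24 on the log2 scale. Thus 5 of 15 tested members of this list were lower and 0 higher, whereas 6 of the 15 had a positive difference and the median was -0.04. In the fit of the 6 libraries alone, 1 of them (Scd2) remained called.

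The cholesterol pathway fell more evenly. Of 26 tested members of the cholesterol synthesis list, 25 had a negative difference, 13 were lower with TVA and 0 were higher, and the median log2 difference was -0.16. The differences of single genes were modest. Mvd, which makes isopentenyl pyrophosphate, was at 43.9, 43.3 and 44.7 FPKM with DMSO and at 36.4, 33.4 and 35.3 FPKM with TVA (log2 difference -0.32 ± 0.03 (SE), adjusted p = 0.000217). Cyp51, lanosterol demethylase, was at 45.4, 47.6 and 47.8 FPKM and then at 39.0, 39.0 and 38.0 FPKM (log2 difference -0.27 ± 0.03 (SE), adjusted p = 0.000103). In none of these genes did the groups overlap. Hmgcs1, which makes HMG-CoA, and Insig1, the sterol-sensing retention protein, fell by 0.23 and 0.28 on the log2 scale. The enzyme genes Lss, Mvk, Msmo1, Sqle and Dhcr7 and Srebf2, the gene of the SREBP2 factor, some of them named after their values were seen, fell by 0.15 to 0.33. The 6 libraries alone gave 8 of the 13 calls. Outside the list, Pcyt2, an enzyme of phosphatidylethanolamine synthesis named after its values were seen, fell from 29.4 to 24.2 FPKM (adjusted p by limma 0.000276), and Acsl3, which activates fatty acids for lipid synthesis, fell from 7.19 to 5.42 FPKM (adjusted p by limma 0.0153).

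Of the 10 tested LXR targets, 3 were lower and 0 higher, with a median log2 difference of -0.18. Abcg1, which exports cholesterol from cells, was at 26.7, 23.8 and 22 FPKM with DMSO and at 14.6, 16.0 and 15.2 FPKM with TVA (log2 difference -0.63 ± 0.07 (SE), adjusted p = 0.000217). This was the largest fall on the log2 scale among the called protein-coding genes. Mylip, a ubiquitin ligase induced by LXR, was at 16.5, 16.4 and 16.0 FPKM and then at 11.2, 13 and 12 FPKM (adjusted p by limma 0.00469). Smpdl3a, a nucleotide phosphodiesterase, fell from 32.5 to 27.7 FPKM (adjusted p by limma 0.00253).

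**Figure D2:**
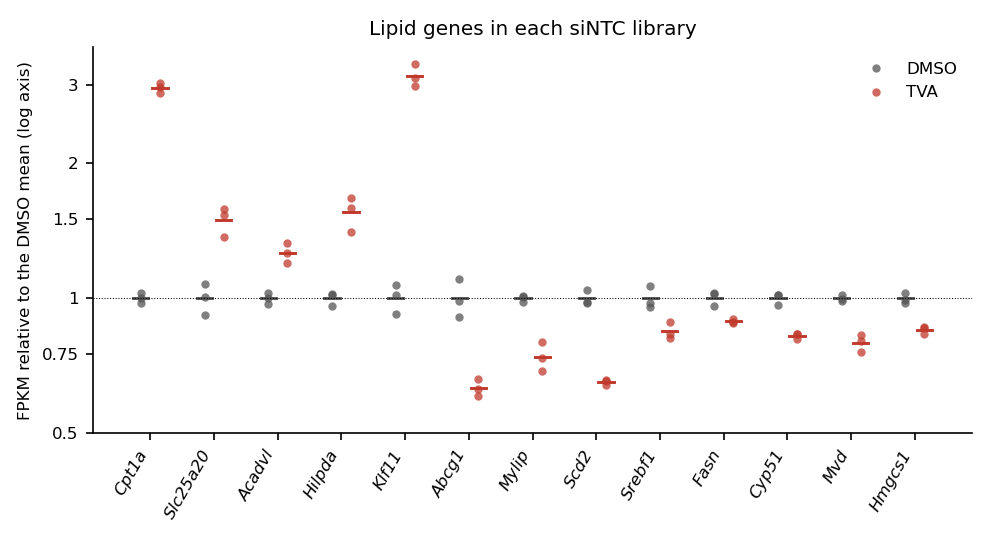
FPKM of 13 lipid genes in each siNTC library divided by the gene's mean over the DMSO libraries (log axis); grey points are the 3 DMSO libraries, red points the 3 TVA libraries and bars the group means. The TVA points of Cpt1a, Slc25a20, Acadvl, Hilpda and Klf11 lie above all DMSO points and those of the other 8 genes lie below them.

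The most extensive change was in genes of cell division. Of the 244 tested members of 6 cell cycle lists (replication, nucleotide synthesis, mitosis, cell cycle control, repair and histones), 150 were higher with TVA and 2 were lower, and their median log2 difference was 0.35. These 150 made up part of the 496 genes that rose, of which 297 were in no list. As means over each list, the 3 TVA libraries lay 0.33 to 0.36 above the DMSO mean for DNA replication and 0.43 to 0.44 above it for mitosis on the log2 scale, whereas the DMSO libraries lay within 0.013 of their own mean in both lists. Whether more cells were cycling or each cycling cell held more of these transcripts cannot be told from bulk RNA.

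Genes of S phase rose from origin licensing to nucleotide supply. In the group of origin licensing and helicase genes 16 of 26 were higher, and in that of polymerases and fork proteins 20 of 26. Pcna, the sliding clamp, was at 102.0, 103.1 and 103.0 FPKM with DMSO and at 137.9, 137.2 and 139.7 FPKM with TVA (log2 difference 0.43 ± 0.02 (SE), adjusted p = 6.45e-07). The spread within each group was a small part of the difference. Mcm3, Mcm4 and Mcm7, subunits of the replicative helicase, rose by 0.34 to 0.39 and Cdc7, the kinase that fires origins, by 0.59. Clspn, which couples the fork to its checkpoint, rose from 5.61 to 10.2 FPKM, and Lig1, the ligase that joins Okazaki fragments, from 13 to 21.4 FPKM. Pclaf, a PCNA-binding factor, was at 19.8, 18.8 and 20.4 FPKM with DMSO and at 33.4, 36.4 and 33.8 FPKM with TVA (log2 difference 0.78 ± 0.04 (SE), adjusted p = 2.17e-06). It was the largest called rise on the log2 scale after Cpt1a, Hist1h3a and Klf11. Of 28 enzymes of nucleotide synthesis, 14 rose and 0 fell. Rrm2, the regulated subunit of ribonucleotide reductase, was at 38.6, 37.9 and 41.0 FPKM and then at 65.1, 65.0 and 62.2 FPKM (log2 difference 0.70 ± 0.03 (SE), adjusted p = 6.45e-07). Its partner Rrm1 and Dut, which keeps uracil out of DNA, rose by 0.48 and 0.50. The 6 libraries alone called 8 of these 14.

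Genes of mitosis were called in 60 of 65 cases, all higher. Top2a, counted above with the fork proteins, encodes the topoisomerase that also untangles chromosomes before they part, and was at 50.6, 47.2 and 49.4 FPKM with DMSO and at 76.1, 79.3 and 76.7 FPKM with TVA (log2 difference 0.65 ± 0.03 (SE), adjusted p = 7.38e-07). Mki67, the gene of the proliferation antigen Ki-67, was at 30.3, 28.6 and 30.3 FPKM and then at 44.6, 44.2 and 44.3 FPKM (log2 difference 0.56 ± 0.03 (SE), adjusted p = 1.79e-06). The groups of both genes lay far apart. The spindle motors Kif11 and Kif15, the condensin subunit Smc2 and the checkpoint kinase Bub1 rose by 0.55 to 0.68. Cyclins and their partners rose in 12 of 21 cases, among them Ccna2, Ccnb2, Ccnf and the mitotic factor Foxm1, by 0.42 to 0.55. Of 10 E2F and DP factors, 5 rose: the activators E2f1 and E2f2, the repressors E2f7 and E2f8, and the partner Tfdp1. The activator and repressor genes thus moved the same way, E2f8 by most, from 4.12 to 7.11 FPKM.

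Inhibitors of division moved in both directions. Btg1, an antiproliferative gene of resting lymphocytes, was at 144.0, 148.7 and 142.6 FPKM with DMSO and at 126.7, 125.5 and 126.5 FPKM with TVA (log2 difference -0.20 ± 0.02 (SE), adjusted p = 0.000351). Cdkn1b, which encodes the inhibitor p27, fell from 68.4 to 61.8 FPKM (adjusted p by limma 0.0111). Cdkn1b lost its call after TPM scaling, the one alternative of 17 in which it did. By contrast Rbl1, the p107 pocket protein, and Cdkn2c, the inhibitor p18, rose by 0.29 and 0.42, and both are known E2F targets themselves. In the MYC network 2 antagonists diverged in the same manner: Mxd3 rose from 10.3 to 15.4 FPKM and Mxd4 fell from 17.6 to 15.1 FPKM.

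Repair genes and a few chromatin genes that accompany replication rose as well. Of 36 repair genes, 20 were higher and 0 lower, with a median log2 difference of 0.33. A fit of the 6 libraries alone gave 14 calls, and a minimum mean of 5 FPKM, which tests fewer genes, left 6 calls. Rad51ap1, a partner of the recombinase, rose from 3.87 to 6.92 FPKM, and Neil3, a glycosylase of S phase, from 4.45 to 7.13 FPKM. Uhrf1, which brings the maintenance methyltransferase to new DNA, was at 21.8, 20.8 and 21.5 FPKM and then at 33.3, 33.5 and 33.7 FPKM (log2 difference 0.62 ± 0.03 (SE), adjusted p = 6.3e-07). That methyltransferase, Dnmt1, rose by 0.44. Among 65 chromatin modifiers 5 rose and 4 fell (13.8% called, against 8.38% of all genes). The median of this list was -0.03, with 24 positive and 41 negative differences. The 5 that rose were Dnmt1, the remodeller Hells, the polycomb methyltransferase Ezh2, its partner Suz12, and the methyltransferase Nsd2. The 4 that fell, Kmt2e, Hdac5, Nsd3 and Chd7, did so by 0.09 to 0.16, and none of them was called in the fit of the 6 libraries alone. Of the replication-dependent histone genes, 67 were in the files and 22 were tested. Hist1h3a alone was called, at 0.375, 1.08 and 0.452 FPKM with DMSO and at 4.36, 2.48 and 1.47 FPKM with TVA (log2 difference 1.16 ± 0.27 (SE), adjusted p = 0.0271). Its call was lost in 6 of 16 alternatives, among them leaving out siNTC replicate 1 or 3 or TVA replicate 1 or 2, and histone genes share near-identical copies. Several abundant proteins of dividing cells, named after their values were seen, rose too: stathmin (Stmn1) from 88.8 to 134.4 FPKM, α- and β-tubulin (Tuba1b, from 159.0 to 233.2 FPKM, and Tubb5, from 308.0 to 426.8 FPKM), and the chromatin protein Hmgb2 from 95.2 to 127.9 FPKM.

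**Figure D3:**
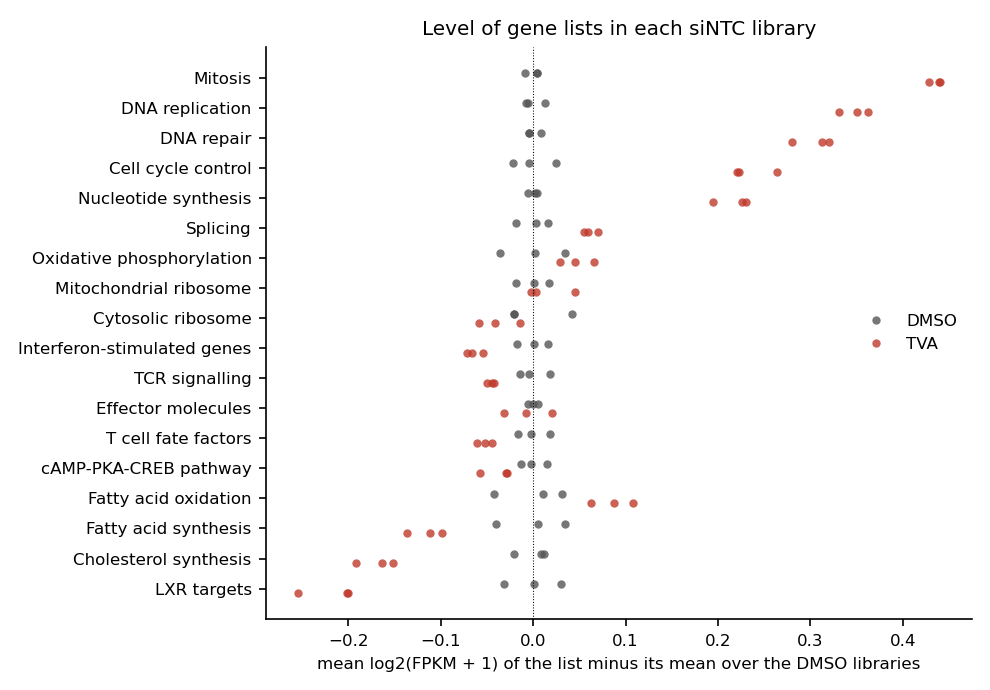
Mean log2(FPKM + 1) over the tested members of 18 gene lists in each siNTC library, minus the list's mean over the DMSO libraries; grey points are the 3 DMSO libraries and red points the 3 TVA libraries. The 5 cell cycle lists at the top lie 0.20 to 0.44 above the DMSO mean in the TVA libraries, and the cholesterol synthesis and LXR lists lie 0.15 to 0.25 below it.

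The upstream promoter sequence of the 4 replication and mitosis genes that led by adjusted p and held an E2F or CHR word is shown because cell cycle genes are known to share short promoter words. RefSeq windows of 300 bases (250 before the start site and 50 after) on GRCm38.p6 were matched by symbol for 7807 of the tested genes. The words marked here were searched on both strands. They were TTTCCCGC, TTTGGCGC, TTTCGCGC and TTTGCCGC for E2F, TTTGAA and TTCGAA for the CHR, and CCAAT for NF-Y. The CHR is the cell cycle genes homology region of late cell cycle promoters. None of these words contains another. Capitals mark these words in the 250 upstream bases, written 5′ to 3′ along the gene's own strand. The windows are chr11:99024190-99024439 (minus strand, Top2a), chr7:135716380-135716629 (minus strand, Mki67), chr19:37376132-37376381 (plus strand, Kif11) and chr9:122950831-122951080 (plus strand, Kif15).
Top2a: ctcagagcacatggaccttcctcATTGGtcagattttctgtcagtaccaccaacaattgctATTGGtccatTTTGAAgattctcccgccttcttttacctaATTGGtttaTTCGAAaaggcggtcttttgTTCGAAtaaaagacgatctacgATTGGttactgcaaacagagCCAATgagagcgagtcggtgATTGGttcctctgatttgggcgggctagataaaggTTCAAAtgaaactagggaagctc
Mki67: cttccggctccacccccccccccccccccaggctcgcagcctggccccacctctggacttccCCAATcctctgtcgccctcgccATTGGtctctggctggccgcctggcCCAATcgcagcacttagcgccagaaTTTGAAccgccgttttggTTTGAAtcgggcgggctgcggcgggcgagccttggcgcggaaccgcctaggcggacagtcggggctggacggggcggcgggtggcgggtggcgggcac
Kif11: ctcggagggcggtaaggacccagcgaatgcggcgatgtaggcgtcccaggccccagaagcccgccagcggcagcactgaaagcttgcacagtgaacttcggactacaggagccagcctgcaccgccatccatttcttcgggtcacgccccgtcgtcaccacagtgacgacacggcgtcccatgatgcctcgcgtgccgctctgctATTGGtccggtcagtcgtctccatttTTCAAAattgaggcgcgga
Kif15: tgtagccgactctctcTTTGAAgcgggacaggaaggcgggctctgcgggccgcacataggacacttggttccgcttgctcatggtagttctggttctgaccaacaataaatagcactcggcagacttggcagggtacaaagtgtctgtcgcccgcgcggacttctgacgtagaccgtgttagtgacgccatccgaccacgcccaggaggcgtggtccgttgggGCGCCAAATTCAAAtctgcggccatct
Top2a held 4 CHR words and 6 CCAAT words in these bases, Mki67 2 and 3, Kif11 1 and 1, and Kif15 2 and 0, with 1 E2F word directly beside a CHR word in Kif15. Over the whole 300-base windows an E2F word was present in 14.2% of the 409 matched genes that rose, in 1.22% of the 246 that fell, in 4.7% of all 7807 matched genes and in 2.32% of 27025 RefSeq symbols. Among replication genes 35.7% held one and among mitosis genes 10.5%. In the 250 upstream bases alone these shares were 21.4% and 8.77%. The CHR words showed the reverse order, with 73.7% of mitosis genes, 21.4% of replication genes, 31.8% of all genes that rose, 13.8% of those that fell, 14.1% of all matched genes and 19.4% of RefSeq symbols. In the upstream bases alone they were present in 38.6% of mitosis genes, 16.7% of replication genes, 22.2% of all genes that rose and 12.4% of all matched genes. CCAAT was present in 55.5% of the genes that rose, 46.3% of those that fell, 84.2% of cholesterol synthesis genes (16 of 19), 40.0% of all matched genes and 37.9% of RefSeq symbols. The full CREB site TGACGTCA was present in 3.67% of the genes that rose, 4.47% of those that fell, 3.55% of all matched genes and 1.88% of RefSeq symbols. It was present in 4.76% of replication genes (2 of 42) and in 8.77% of mitosis genes (5 of 57), or 3.51% of the latter in the upstream bases alone. These shares describe letters in a window and were not tested.

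Lists of RNA and protein handling held fewer calls than those of the cell cycle. In the splicing list 11 of 59 tested members were higher and 0 lower, led by the snRNP core protein Snrpd1, which was at 61.2, 62.6 and 63.4 FPKM with DMSO and at 81.4, 80.6 and 80.4 FPKM with TVA (adjusted p by limma 7.23e-05). The other 10 rose by 0.09 to 0.27, among them Sf3a1, Srsf1 and Hnrnpab. The 6 libraries alone called 2 of the 11, TPM scaling 5, and leaving out TVA replicate 3 gave 7. Of 24 heat shock genes, Hsp90aa1, Hspa8 and Hsp90ab1 rose, by 0.09 to 0.22, and 1 of these 3 was called with the 6 libraries alone, with TPM or without siNTC replicate 2 or 3 or any TVA replicate. Of 32 proteasome subunits Psmd14 and Psmc6 rose (6.25%). Psat1, an enzyme of serine synthesis, rose from 12.5 to 16.3 FPKM and the mitochondrial folate enzyme Mthfd2 from 14.0 to 17.3 FPKM. They were the 2 called members among 34 of the list of ATF4 targets (5.88%). Both shares are near the 5.16% of all protein-coding genes that rose, and the 6 libraries alone called 1 gene in each list. Energy metabolism outside the carnitine route gave few calls. Of 13 mitochondrial transcripts 0 were called by limma, with 0 at an unadjusted p under 0.05 and 0 by limma-voom. Of 77 mitochondrial ribosomal protein genes 0 were called by limma, with 7 at an unadjusted p under 0.05 and 1 by limma-voom. Of 91 respiratory chain subunits 2 were higher and 1 lower (3.3% called, against 8.38% of all genes). Of 36 glycolysis and hypoxia genes Tpi1, a glycolytic isomerase, and Slc16a1, the lactate carrier, rose by 0.21 and 0.14 (5.56% called). None of these calls held in the fit of the 6 libraries alone.

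Among the 366 protein-coding genes of 100 FPKM or more, 54 fell and 27 rose. Of 23 memory and quiescence factors, 6 were lower (26.1%, against 3.22% of all genes) and 0 higher. Their median was -0.10, with 5 positive and 18 negative differences. Of the 6, Tcf7 and Slfn2 were among the 366 genes of 100 FPKM or more. Of 14 effector-associated factors 0 were called by limma, with 5 at an unadjusted p under 0.05 and 0 by limma-voom. Tcf7, the factor of naive and memory T cells, was at 712.1, 700.4 and 681.6 FPKM with DMSO and at 638.4, 659.4 and 639.1 FPKM with TVA (log2 difference -0.11 ± 0.02 (SE), adjusted p = 0.00887). Slfn2, a keeper of quiescence, fell from 290.4 to 255.7 FPKM (adjusted p by limma 0.00223), and Satb1, Myb, Foxo3 and Foxo4 fell by 0.10 to 0.23. The fit of the 6 libraries alone called 1 of the 6, and quantile scaling and TPM 2 each. Leaving out siNTC replicate 1, TVA replicate 1 or TVA replicate 2 gave 3 each.

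Falls among receptor genes were small, but in several lists more frequent than the 3.22% of all protein-coding genes. Of 33 cytokine receptor and SOCS genes, 5 were lower (15.2%) and 0 higher. Ifngr1, the ligand-binding chain of the interferon-γ receptor, was at 223.6, 221.6 and 225.8 FPKM with DMSO and at 195.8, 186.2 and 185.0 FPKM with TVA (log2 difference -0.24 ± 0.03 (SE), adjusted p = 0.000183). Il6st, Tgfbr2, Il7r and the inhibitor Socs1 fell by 0.16 to 0.27. Of 22 homing and memory receptors, 4 fell and 2 rose (27.3% called, against 8.38% of all genes). S1pr1, which brings lymphocytes out of lymph nodes, was at 199.9, 195.8 and 196.9 FPKM and then at 175.2, 175.1 and 177.3 FPKM (log2 difference -0.17 ± 0.02 (SE), adjusted p = 0.000245). S1pr4 and Ccr9 were among the 4 that fell, whereas Cd44, an activation marker, rose by 0.23. With TVA replicate 2 or 3 left out 2 falls were called, and the 6 libraries alone called 1 fall and 0 rises. In the T cell receptor list 5 of 38 fell (13.2%), among them Dgka, Ptpn22, Plcg1 and Prkcq, by 0.11 to 0.16. Of these, Dgka and Ptpn22 encode inhibitors of the pathway, and Plcg1 and Prkcq encode proteins that transmit its signal. The 6 libraries alone and TPM scaling called 1 of the 5, leaving out siNTC replicate 1, siNTC replicate 2 or TVA replicate 2 gave 2 each, and leaving out TVA replicate 3 gave 1. Of 25 checkpoint and costimulatory receptors, Vsir (the inhibitory receptor VISTA) and Cd27 fell, by 0.12 and 0.10 (8.0% called, near the share of all genes). Neither was called with the 6 libraries alone, with TPM or without siNTC replicate 1 or 2 or TVA replicate 2 or 3.

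Interferon-stimulated genes also gave calls in 1 direction. Of 46 tested, 7 were lower (15.2%, against 3.22% of all genes) and 0 higher, with a median of -0.07. Slfn1, Gbp2, Igtp and Ifi47 among them were above 100 FPKM, a level at which 54 of 366 protein-coding genes fell. Stat2, a subunit of the interferon-activated complex, was at 16.1, 15.9 and 16.7 FPKM with DMSO and at 13.5, 13.7 and 13.2 FPKM with TVA (log2 difference -0.25 ± 0.03 (SE), adjusted p = 0.00114). The others were Slfn1 and the interferon-inducible GTPase genes Gbp2, Irgm1, Irgm2, Igtp and Ifi47, which fell by 0.09 to 0.15. The 6 libraries alone called 2 of them and TPM scaling 1, the count was 3 without siNTC replicate 3 or TVA replicate 2, and it was 4 without TVA replicate 1 or 3. A test of protein-coding genes alone called 11. Of 83 cytosolic ribosomal protein genes 8 were lower and 0 higher, and the median was -0.05. Under quantile scaling, however, that median was 0 and the differences of Rpl19 and Rps6 changed sign, so no direction is given for this family. Its genes also share reads with processed pseudogenes.

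Of 32 tested effector genes, which carry out killing and help, 2 rose and 3 fell (15.6% called, against 8.38% of all genes). The share called depended on abundance: it was 12.6% in all genes of 20 to 100 FPKM and 22.1% in those of 100 FPKM or more. The median of the effector list was -0.01, with 15 positive and 17 negative differences. Gzmb, the granzyme that triggers death of target cells, was at 74.1, 71.7 and 71.4 FPKM with DMSO and at 87.2, 94.1 and 88.3 FPKM with TVA (log2 difference 0.31 ± 0.03 (SE), adjusted p = 0.000245). Nkg7, a granule membrane protein, rose from 354.4 to 383.4 FPKM (log2 difference 0.11 ± 0.02 (SE), adjusted p = 0.00359). They were the 2 called among 17 granule genes (11.8% higher, against 5.16% of all genes). The 6 libraries alone called 1 of these 2. Of 15 cytokines and chemokines tested, Ltb, Ccl5 and Il16 fell by 0.13 to 0.16 and 0 rose. None of the 3 was called with the 6 libraries alone, Ltb was not called under quantile scaling, and Il16 lost its call in 10 of 17 alternatives, among them leaving out siNTC replicate 1 or 2 or any TVA replicate. Tnf was at 3.88, 5.40 and 4.59 FPKM with DMSO and at 5.28, 5.13 and 5.28 FPKM with TVA (adjusted p by limma 0.442). Ifng was at 1.35, 1.2 and 1.45 FPKM with DMSO and at 0.919, 1.53 and 0.759 FPKM with TVA (adjusted p by limma 0.48). The groups of both genes overlapped. Il2, the growth factor of T cells, lay below the level tested, with 1 to 11 reads per library. Tbx21, the factor of the effector programme, was at 16.0, 14.7 and 13.8 FPKM with DMSO and at 17.3, 16.2 and 17.9 FPKM with TVA, and did not pass the test (log2 difference 0.20 ± 0.09 (SE), adjusted p = 0.234). Batf, Lag3 and Ilf2 had log2 differences of -0.02, -0.10 and 0.14 and were not called, nor was Bcl6, with a difference of -0.32 and an adjusted p of 0.0663. Foxo4, listed above, passed narrowly (adjusted p = 0.0475) and missed the threshold in 12 of 17 alternatives. Il18 and Ebi3 were below the level tested. Their reads were 0, 0 and 0 against 4, 1 and 7 for Il18 and 2, 7 and 4 against 21, 14 and 9 for Ebi3, DMSO first.

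**Figure D4:**
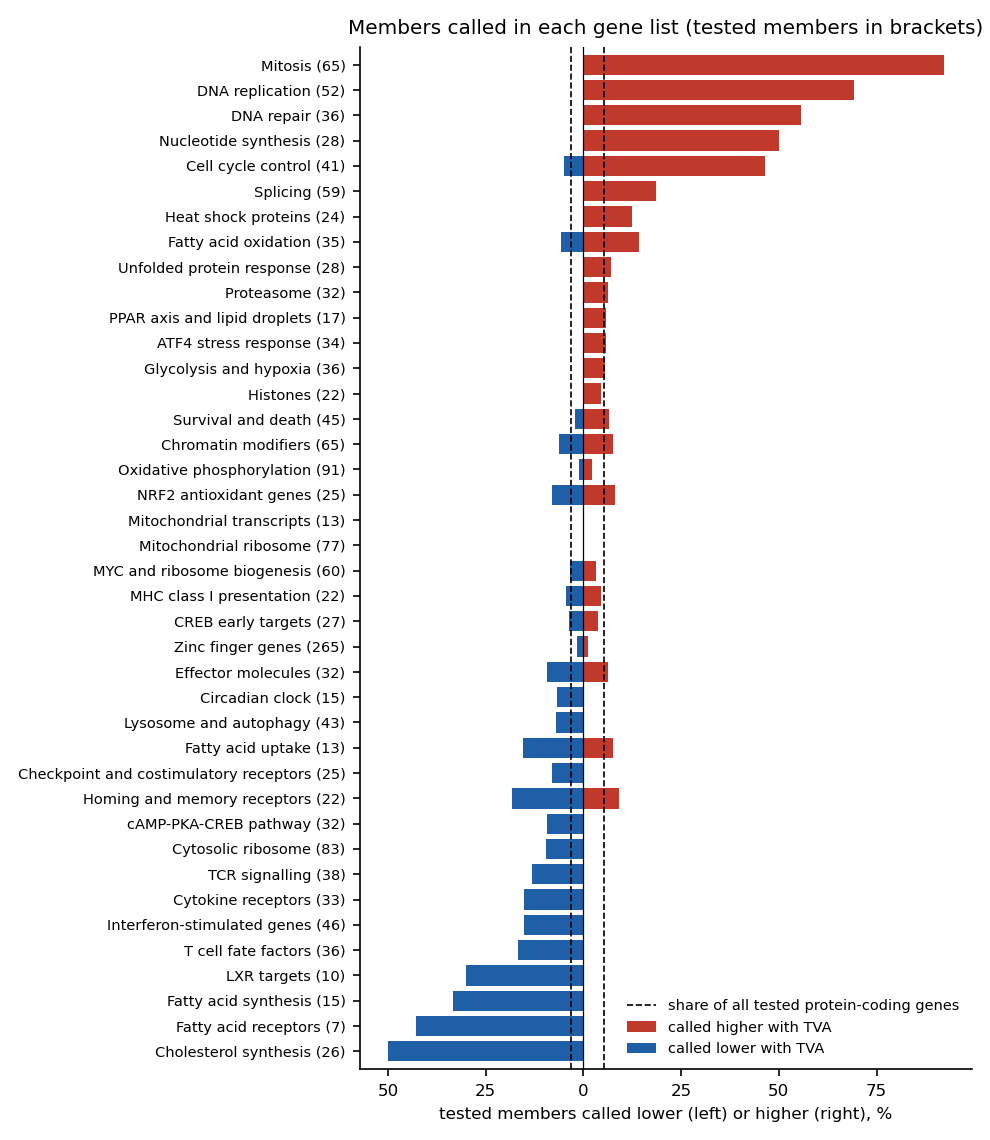
Share of tested members of 40 gene lists called lower (blue, left) or higher (red, right) with TVA in siNTC cells, in percent, with the number of tested members in brackets. Dashed lines mark the shares of all tested protein-coding genes, 3.22% lower and 5.16% higher; the mitosis and DNA replication bars reach 92.3% and 69.2% on the right and the cholesterol synthesis bar 50% on the left.

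Among lipid-related receptors and in the cAMP pathway, a few receptor and phosphodiesterase genes fell. Of the 19 fatty acid and related G protein-coupled receptors listed, 7 were tested. The sphingosine-1-phosphate receptor genes S1pr1 and S1pr4 fell, which were already counted above among the homing receptors. Gpr132, a receptor for oxidised lipids, fell too, and the 3 falls were of 0.17 to 0.19 (42.9% of the 7, against 3.22% of all genes). All 7 had a negative difference, with a median of -0.17, and 2 were called with the 6 libraries alone. Ffar2, the short-chain fatty acid receptor GPR43, had 0, 0 and 7 reads with DMSO and 0, 14 and 4 reads with TVA, below the level tested. In the cAMP pathway 3 phosphodiesterases, which break down cyclic AMP, fell among 11 G protein, cyclase and phosphodiesterase genes (27.3%). Pde3b was at 63.8, 60.2 and 61.4 FPKM with DMSO and at 53.7, 54.6 and 54.1 FPKM with TVA (log2 difference -0.19 ± 0.03 (SE), adjusted p = 0.00542), and Pde7a and Pde4d fell by 0.12 and 0.20. Of these, Pde3b alone was called with the 6 libraries, and 1 of the 3 was called after TPM scaling or without siNTC replicate 2 or 3 or TVA replicate 2 or 3. Of 10 PKA subunits, anchors and exchange factors 0 were called by limma, with 2 at an unadjusted p under 0.05. Of 11 CREB family members and coactivators 0 were called by limma and 0 had an unadjusted p under 0.05. In both groups limma-voom called 0. Creb1 was at 11.0, 10.3 and 10.5 FPKM with DMSO and at 11.0, 12 and 12.4 FPKM with TVA (adjusted p by limma 0.501). The catalytic subunit genes Prkaca and Prkacb had log2 differences of 0.11 ± 0.08 and -0.09 ± 0.03 (SE) and were not called. Of 27 genes that cyclic AMP is known to induce through CREB, Klf10 rose and Sik1 fell (7.41% called, against 8.38% of all genes). Neither was called with the 6 libraries alone, and Sik1 lost its call in 7 of 16 alternatives, among them leaving out siNTC replicate 1 or 2 or TVA replicate 2 or 3.

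Genes of cell death were called about as often as all genes (4 of 45 against 8.38%). Bbc3, which encodes the death protein PUMA, fell from 29.7 to 24.1 FPKM (adjusted p by limma 0.0137), while Apaf1, the scaffold of the apoptosome, rose by 0.18. Among 25 antioxidant genes Txn1 (thioredoxin) and Sod1 rose and Sqstm1 and Pgd fell. Sod1 and Pgd were not called with the 6 libraries alone, and Sod1 lost its call in 8 of 17 alternatives, among them leaving out siNTC replicate 1 or 3 or any TVA replicate. Of 28 genes of the unfolded protein response Ssr3 and Pdia3 rose (7.14%, against 5.16% of all genes). Neither was called with the 6 libraries alone or without siNTC replicate 3 or TVA replicate 2 or 3. Of 60 genes of MYC and ribosome biogenesis 2 rose and 2 fell (6.67% called, against 8.38% of all genes). Bbc3 and Apaf1 were not called in the fit of the 6 libraries alone or without TVA replicate 3.

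The same TVA comparison in cells with the Creb1 siRNA used other libraries, and its values are set beside those of the siNTC cells. Creb1 itself was between 1.17 and 1.81 FPKM in those 6 libraries and between 10.3 and 12.4 FPKM in the siNTC libraries. With Creb1 knocked down, TVA raised 12 of the 9619 protein-coding genes (0.125%) and lowered 43 (0.447%). Of the 12, 7 were among the 496 that rose in siNTC cells: Cpt1a, Klf11, Klf10, Hilpda, Acadvl, Rhob and Asf1b, a histone chaperone. Of the 43, 25 were among the 310 that fell, among them Scd2, Scd1, Abcg1, Fasn, Cyp51 and Mvd. The log2 difference of Cpt1a was 1.38 ± 0.04 (SE) in siCreb1 cells against 1.48 ± 0.04 in siNTC cells. That of Abcg1 was -0.62 in siCreb1 cells and -0.63 in siNTC cells, and that of Scd2 was -0.87 against -0.61. Of the 26 cholesterol synthesis genes 15 were lower in siCreb1 cells, with a median of -0.30 against -0.16. Of the 10 LXR targets Abcg1 alone was lower there, and the median was -0.04 against -0.18. Smpdl3a had a difference of -0.03 and Mylip one of -0.28 in siCreb1 cells (adjusted p by limma 0.855 and 0.165), and the change from siNTC cells did not pass the test for either (adjusted p by limma 0.0731 and 0.613).

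The difference between the 2 TVA effects was tested as an interaction in the same fit, which uses the siNTC libraries again, and 2.73% of the protein-coding genes were called. Of the 244 tested members of the cell cycle lists, 98 had a smaller effect in siCreb1 cells and 1 (Btg1) differed in the other direction. The median of these lists was 0.03 in siCreb1 cells against 0.35 in siNTC cells, and 0 members were called there by limma, with 30 at an unadjusted p under 0.05 and 3 called by limma-voom. For Top2a the effect was 0.07 ± 0.03 in siCreb1 cells and 0.65 ± 0.03 in siNTC cells (SE, adjusted p of the difference by limma 0.00012). For Gzmb it was -0.08 against 0.31 (adjusted p of the difference by limma 0.00251), and for S1pr1 0.06 against -0.17 (0.00169). Of the 26 cholesterol synthesis genes 1 was called for the difference, Hmgcs1, whose fall was larger in siCreb1 cells (adjusted p by limma 0.021), as was that of Scd2 (0.00776). For Cpt1a, Klf11, Hilpda, Slc25a20, Acadvl and Abcg1 the difference did not pass the test. Its size for Cpt1a was -0.10 ± 0.06 (SE), and that for Klf11, -0.41, had an adjusted p of 0.0772.

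**Figure D5:**
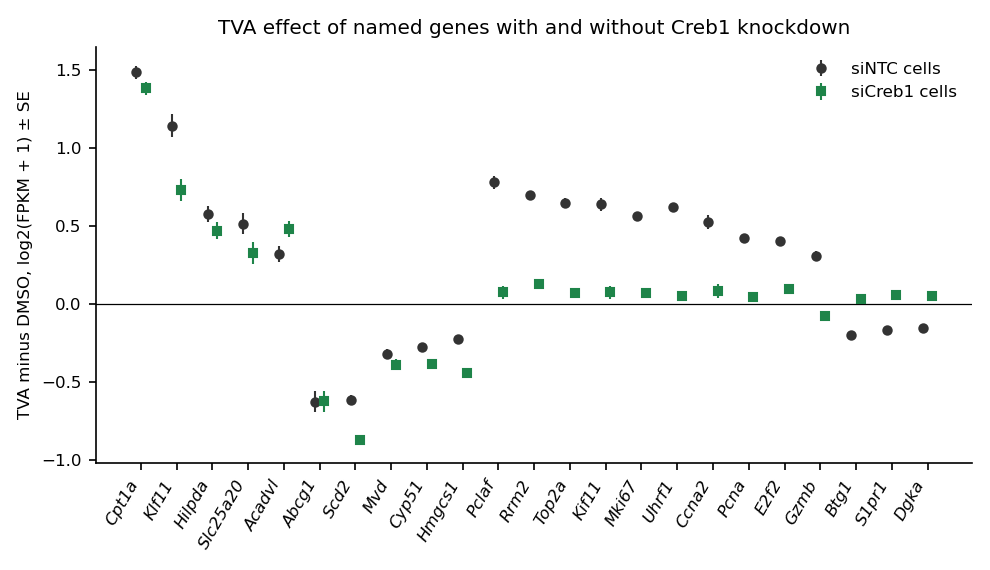
TVA minus DMSO on log2(FPKM + 1) with its SE for 23 named genes in siNTC cells (circles) and siCreb1 cells (squares), 3 libraries per group. The 5 genes at the left are above 0 and the next 5 below 0 in both kinds of cells, whereas the genes from Pclaf to E2f2 lie between 0.40 and 0.78 in siNTC cells and between 0.04 and 0.13 in siCreb1 cells.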

How the data were processed

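RNA of mouse primary CD8+ T cells was sequenced in 12 libraries, 4 groups of 3, of which 6 are compared here. Groups and replicate numbers were taken from the sample titles. The authors deposited FPKM values, 1 file per library. The builds named in the submitters' processing notes are GRCm38 and mm10. The aligner, counting program, annotation release, strandedness and any normalization between libraries are not given in the sources used here. Without a stated strand, reads of overlapping genes (Cyp51 and Akap9, Ccna2 and Exosc9, Mcm7 and Cops6, Pclaf and Trip4, Lig1 and Zswim9, Acsl3 and Utp14b, Mvd and Gm20388, Srebf1 and Rai1, Acadvl and Dvl2, Irgm2 and Igtp) cannot be told apart.

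FPKM multiplied by gene length was a whole multiple of 1 read (within 0.1) for at least 99.995% of values above 0, which gave 16660234 to 24602484 reads per library. The fit covered the 11471 genes of every biotype whose FPKM averaged at least 1 over the 6 libraries. It was run in R 4.3.3 with limma 3.58.1 on log2(FPKM + 1), with 1 coefficient per group, a mean-variance trend and all 12 libraries, so that the 4 groups shared the spread. Adjustment was by Benjamini-Hochberg over every gene fitted, with calls below 0.05. Differences on this scale understate the change of low genes. Named genes were the 15 largest rises and the 15 largest falls among called protein-coding genes without overlap between groups, genes the study names, and per list role the 4 called members with the lowest adjusted p or, without a call, the most abundant one. Others are said to have been named after their values were seen, or belong to counts given in full. The members and gene lists were chosen with earlier results of these data known, and a list is given by counts and its median, with no set test. Alternatives were a fit of the 6 libraries, the replicate block, no trend, a pseudocount of 0.1, all genes above 0, a mean of at least 5 FPKM, quantile scaling, TPM, limma-voom on the recovered reads, protein-coding genes only, and leaving out each library. TPM over protein-coding genes only and the interaction counts under these settings were added after seeing the data. Some members of the lists are counted but not reported by name here. Promoter sequences are those of RefSeq (GRCm38.p6). Tables and plots were made in Python 3.11.15 with pandas 2.3.3 and matplotlib 3.10.9.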

Additional observations from a re-analysis of the deposited data

Results flagged for a closer look

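For 68 of the genes reported by name, the TVA effect differed between siCreb1 and siNTC cells. The test was the interaction term of the limma fit (adjusted p under 0.05), which 2.73% of all protein-coding genes tested passed. Many named genes were chosen for their difference in siNTC cells, which this term subtracts. The choice thus favours the term, and the 68 cannot be read against that share. The values in brackets are the effect in siCreb1 cells minus that in siNTC cells on log2(FPKM + 1). The siNTC libraries enter both the effect described above and this difference.

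Among DNA replication and nucleotide synthesis genes these were Pclaf (-0.705), Clspn (-0.716), Rrm2 (-0.571), Lig1 (-0.592), Mcm3 (-0.371), Cdc7 (-0.578), Mcm7 (-0.372), Mcm4 (-0.271), Pcna (-0.381), Top2a (-0.579), Dut (-0.34) and Rrm1 (-0.398), all with a smaller rise in siCreb1 cells. Among genes of mitosis and cell cycle control they were Bub1 (-0.63), Mki67 (-0.494), Kif11 (-0.565), Kif15 (-0.495), Smc2 (-0.443), Ccna2 (-0.441), Ccnb2 (-0.402), Ccnf (-0.434), Foxm1 (-0.475), Rbl1 (-0.352), Cdkn2c (-0.486), E2f2 (-0.304), E2f8 (-0.453) and Btg1 (0.234), of which Btg1 fell in siNTC cells. Among repair, chromatin and cytoskeletal genes of dividing cells they were Hmgn2 (-0.643), Hells (-0.547), Rad51ap1 (-0.733), Tcf19 (-0.51), Fignl1 (-0.58), Uhrf1 (-0.574), Dnmt1 (-0.405), Neil3 (-0.511), Ezh2 (-0.289), Nsd2 (-0.385), Asf1b (-0.418), Stmn1 (-0.565), Tuba1b (-0.483), Tubb5 (-0.423), Ptma (-0.323), Hmgb2 (-0.43), Mxd3 (-0.529) and Mxd4 (0.257). Hmgn2, Tuba1b, Tubb5 and Ptma have near-identical copies that can share reads.

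The lipid genes among them were Scd2 (-0.257), Hmgcs1 (-0.214) and Acsl5 (-0.219). Scd2 and Hmgcs1 fell further in siCreb1 cells. The receptor, signalling and effector genes were S1pr1 (0.223), Gpr132 (0.196), S1pr4 (0.248), Gzmb (-0.383), Nkg7 (-0.119), Ccl5 (0.189), Myb (0.209), Cd44 (-0.338), Il6st (0.158), Il7r (0.285), Dgka (0.21), Gbp2 (-0.174) and Zfp36 (0.362). The genes of stress, metabolism and RNA handling were Txn1 (-0.287), Psat1 (-0.347), Mthfd2 (-0.356), Hsp90aa1 (-0.194), Ndufb3 (-0.317), Snrpd1 (-0.351), Sf3a1 (-0.156) and Hnrnpab (-0.135).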

How the results depend on the processing

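Over genes of every biotype, 855 were called (520 higher, 335 lower). The 6 libraries alone gave 375 (285 higher, 90 lower), with 4 residual degrees of freedom against 8 in the fit of all 12 libraries. TPM gave 557 (154 lower), and testing all genes above 0 lowered the falls to 194 with 26225 genes tested. The causes of the TPM shift were not tested. A mean of at least 5 FPKM moved the split to 52.5% higher, and TPM over protein-coding genes to 71.8%. Leaving out 1 library gave 564 to 710 calls, of which 178 to 256 were falls, fewest without TVA replicate 2 (564 calls, 178 falls). Falls numbered 186 without TVA replicate 3 and 204 without siNTC replicate 2. The interaction was called for 267 genes. It gave 176 with all genes above 0, 153 with TPM, 443 with limma-voom and 173 to 239 with 1 library left out, fewest without TVA replicate 2. The replicate block gave 689 calls (446 higher, 243 lower) and 196 for the interaction. Libraries with the same number in the siNTC and TVA groups did not deviate together (r = 0.028, -0.008 and 0.002 across genes). This gave no sign of pairing by number. It cannot exclude pairing, since pairs that share little variation would give the same r. Of the 174 named genes that were called, 87 kept the call in all 17 alternatives, 87 lost it in at least 1 (14 of them in no other than the fit of the 6 libraries), and Rpl19 (0.009) and Rps6 (0.007) changed sign under quantile scaling. Among uncalled genes, Batf was at 0.003 with limma-voom and between -0.059 and 0.034 with 1 library left out, mt-Co1 between -0.084 and 0.009, and Mrpl34 between -0.014 and 0.055. Counting error is largest in genes near 1 FPKM, where a small change cannot be told from the spread, and 3 libraries per group limit every SE.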

Other observations

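Outside the protein-coding genes, 49 genes were called. Some large differences in protein-coding genes did not pass the test. Heatr9 was at 2.8, 3.8 and 2.96 FPKM with DMSO and at 1.39, 1.96 and 2.39 FPKM with TVA, with groups that did not overlap (log2 difference -0.53, adjusted p by limma 0.0557). Gm17545 was at 4.17, 2.4 and 6.03 FPKM with DMSO and at 0.752, 0 and 1.37 FPKM with TVA (log2 difference -1.63, adjusted p by limma 0.102). These genes were named after their values were seen.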
